A study of Mus musculus with 3 samples.

Results

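Ribosomal protein paralog pairs are genes for a canonical ribosomal protein and a second gene of the same ancestry whose protein resembles it. Here they were Rpl3 with Rpl3l, Rpl22 with Rpl22l1, Rps27 with Rps27l, and Rpl7 with Rpl7l1. They were taken by gene symbol, with earlier results of these data known, which gave 8 genes of the 23238 symbols counted. In each pair the first gene is called the partner and the second the paralog. The cells were C2C12, mouse myoblasts of an immortalized line, which fuse into myotubes when serum is lowered. All of them had been moved to DMEM with 2% horse serum, the myogenic induction medium, for 2 days. They grew on tissue culture plate (TCP), on a hydrogel of 15% methacrylated gelatin (GelMA), or on GelMA-PSS, which held 15% GelMA and 1% poly(sodium-4-styrenesulfonate) (PSS), a negatively charged polymer that mimics heparin. RNA-seq gave 1 library per substrate. No value below therefore has a replicate spread, no p-value was computed, and the intervals at 95% cover counting error only. The difference between GelMA and TCP, both without PSS, is given beside each comparison of GelMA-PSS with them.

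Ribosomes are built from ribosomal RNA and many small proteins, whose genes are mostly expressed together and strongly in growing cells. Some of these proteins have a paralog that can take the same place in the ribosome or act in its assembly. Rpl3l is known as a form of the large subunit protein Rpl3 that is restricted to skeletal and cardiac muscle. Rpl22l1 can stand in for Rpl22, and the Rpl22 protein is known to bind Rpl22l1 RNA and to lower its level. Rps27l is a small subunit protein close to Rps27 and a known target of p53. Rpl7l1 is the relative of Rpl7 that acts in large subunit assembly.

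The 8 genes lie apart from one another in the mouse genome (GRCm38, GENCODE vM21). Rpl3 is at chr15:80077791-80091868 on the minus strand and Rpl3l at chr17:24727820-24736143 on the plus strand, with 10 exons each. Rpl22 is at chr4:152325742-152334071 and Rpl22l1 at chr3:28805436-28807424, both on the plus strand with 4 exons. Rps27 is at chr3:90212522-90213651 on the minus strand and Rps27l at chr9:66946086-66949516 on the plus strand, with 4 exons each. Rpl7 is at chr1:16101295-16104662 and Rpl7l1 at chr17:46773907-46782672, both on the minus strand with 7 exons. Counts were per gene symbol, so they do not separate exons or transcripts, and which exons they cover is not given in the sources used here.

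The coding sequences show how far the partners of a pair can be told apart. The Rps27 pair is printed whole, from the first codon and 5′ to 3′, because the 2 proteins are nearly the same while the genes are not. The capitals mark the 60 of 252 bases that differ.
Rps27: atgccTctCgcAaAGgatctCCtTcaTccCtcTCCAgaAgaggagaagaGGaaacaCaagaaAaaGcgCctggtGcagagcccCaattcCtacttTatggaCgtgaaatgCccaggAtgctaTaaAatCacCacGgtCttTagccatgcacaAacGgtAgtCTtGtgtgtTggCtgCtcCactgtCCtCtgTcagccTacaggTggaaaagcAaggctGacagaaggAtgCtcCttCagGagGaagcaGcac
Rps27l: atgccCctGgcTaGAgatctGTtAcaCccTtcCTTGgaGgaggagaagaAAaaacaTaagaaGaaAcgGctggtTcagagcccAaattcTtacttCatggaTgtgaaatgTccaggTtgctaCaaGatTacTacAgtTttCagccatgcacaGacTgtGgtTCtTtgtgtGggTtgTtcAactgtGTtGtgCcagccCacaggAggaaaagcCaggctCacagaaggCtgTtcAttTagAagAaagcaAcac
Over the coding sequence Rps27 and Rps27l were 76.2% identical, whereas the translated proteins differed at 3 of 84 residues (96.4% identical). The longest run of identical coding bases was 11. A further gene, the single-exon Rps27rt at chr9:114982366-114982739 on the minus strand, had a coding sequence identical to that of Rps27 over all 252 bases, so the line for Rps27 above is also the sequence of Rps27rt.

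For the Rpl22 pair the most alike stretch of 120 bases is shown, bases 232 to 351 of the Rpl22 coding sequence and 214 to 333 of that of Rpl22l1, because this was the pair whose paralog took a larger share in GelMA-PSS. The capitals mark the 22 bases that differ.
Rpl22: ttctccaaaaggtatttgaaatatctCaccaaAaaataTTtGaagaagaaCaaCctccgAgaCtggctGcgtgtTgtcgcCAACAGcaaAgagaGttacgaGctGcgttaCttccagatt
Rpl22l1: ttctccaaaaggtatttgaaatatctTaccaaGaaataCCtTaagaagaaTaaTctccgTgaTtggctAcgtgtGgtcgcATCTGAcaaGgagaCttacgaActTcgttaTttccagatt
Over the whole coding sequence the identity was 70.2%, and over the protein 73.8%. The first bases of this stretch hold the longest identical run of the pair, 26 bases.

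For the Rpl3 pair, bases 456 to 575 of both coding sequences are shown, because counts of Rpl3l were few beside those of Rpl3, so that the distance between the sequences bears most on it. The capitals again mark 22 differing bases.
Rpl3: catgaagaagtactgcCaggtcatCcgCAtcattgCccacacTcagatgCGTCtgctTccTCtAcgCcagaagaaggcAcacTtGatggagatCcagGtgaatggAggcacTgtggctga
Rpl3l: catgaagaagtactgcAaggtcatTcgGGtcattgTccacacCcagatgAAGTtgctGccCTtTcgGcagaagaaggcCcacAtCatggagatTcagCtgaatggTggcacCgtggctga
The coding sequences were 74.1% identical, the proteins 77.1%, and the longest identical run was 22 bases. Rpl7 and Rpl7l1 were the least alike, with 57.8% in the coding sequence, 44.7% in the protein and a longest run of 10 bases.

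**Figure D1:**
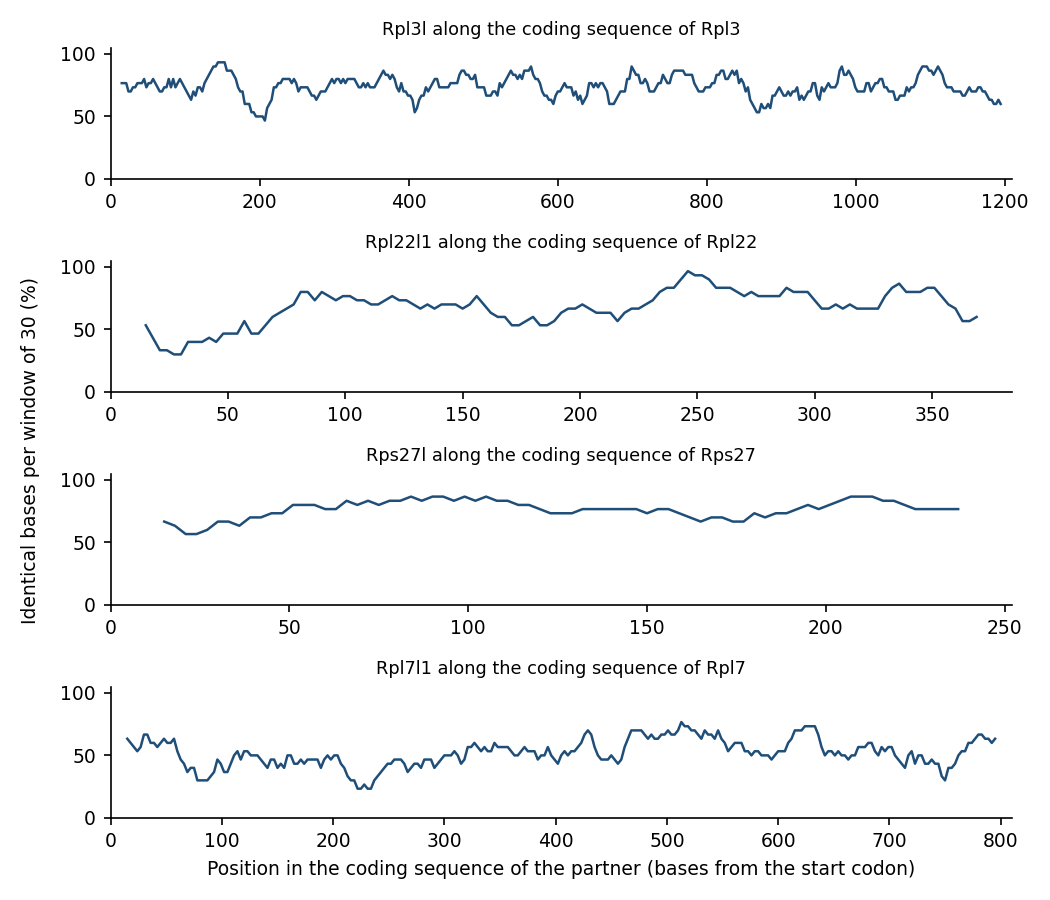
Identity of each paralog to its partner along the coding sequence. The x axis gives the centre of the window in bases from the start codon of the partner, and the y axis gives the percentage of identical bases in windows of 30 aligned bases. Rpl7l1 stayed at or below 76.67% in every window, while Rpl22l1 ranged from 30% near the start codon to 96.67%.

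No window as long as 1 sequencing read, by the read length of the study's methods, was shared between the partners of any of the 4 pairs. Other genes did share such windows. Of the 245 windows in the Rps27 transcript, 241 (98.4%) also occurred in Rps27rt, so the counts of Rps27 and Rps27rt are uncertain and their split depends on how the authors placed such reads, which is not given in the sources used here. For Rpl3, 991 of 1251 windows (79.2%) occurred in pseudogenes that the count files do not list. For Rpl22l1, 228 of 452 (50.4%) occurred elsewhere, 182 of them in the pseudogene Gm15421, which had counts of 255 in TCP, 164 in GelMA and 784 in GelMA-PSS. For Rpl7 it was 294 of 1063 (27.7%), all in pseudogenes, and for Rpl7l1 40 of 2506 (1.60%). Rpl3l, Rpl22 and Rps27l had 0 such windows.

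Total counts were 119799095 in TCP, 87071144 in GelMA and 192171443 in GelMA-PSS, and levels are given as CPM, counts scaled to a common library total, with TMM factors. A count of 3, taken as the limit of detection, corresponds to 0.0246, 0.0330 and 0.0166 CPM. All 7 myogenic markers checked were at 1 CPM or above, among them Myog with 1100, 895 and 1037 CPM, while leukocytes, epithelium and neurons had 1 of 3 markers at that level and endothelium 0 of 3, with summed levels from 0.115 to 10.3 CPM for these types. The ratio of GelMA-PSS to GelMA fell with transcript length over 13062 genes (Spearman's rho −0.66 across genes, which are not independent replicates). Against TCP the rho was −0.51, and for GelMA against TCP it was 0.21. Since the transcripts of a pair can differ in length, the ratios of GelMA-PSS to the controls are also given after subtraction of the trend with transcript length and GC content, called corrected, and the part of that trend in the results was not tested further.

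Of the 8 genes, 7 reached 1 CPM in some library and are among the 13169 genes tested, while Rpl3l did not reach it. All 7 were highest in GelMA-PSS, as were 45.3% of all genes tested, and 0 of 7 were lowest there, as were 39.3% of all genes. Rpl22, Rpl22l1 and Rps27 were more than 2-fold higher than both, on the scale of log2(CPM + 1), which makes 3 of 7 where 1.37% of all genes tested passed this threshold. None of the 7 was more than 2-fold lower than both, beside 1.16% of all genes. None of the 7 was more than 2-fold apart between GelMA and TCP, where 1.00% of genes were. Without the TMM factor, which moved the median over all genes from 0.03 to −0.10 against GelMA, Rpl22 missed the threshold (0.94 and 0.95), and after the correction 0 of 7 passed it.

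**Figure D2:**
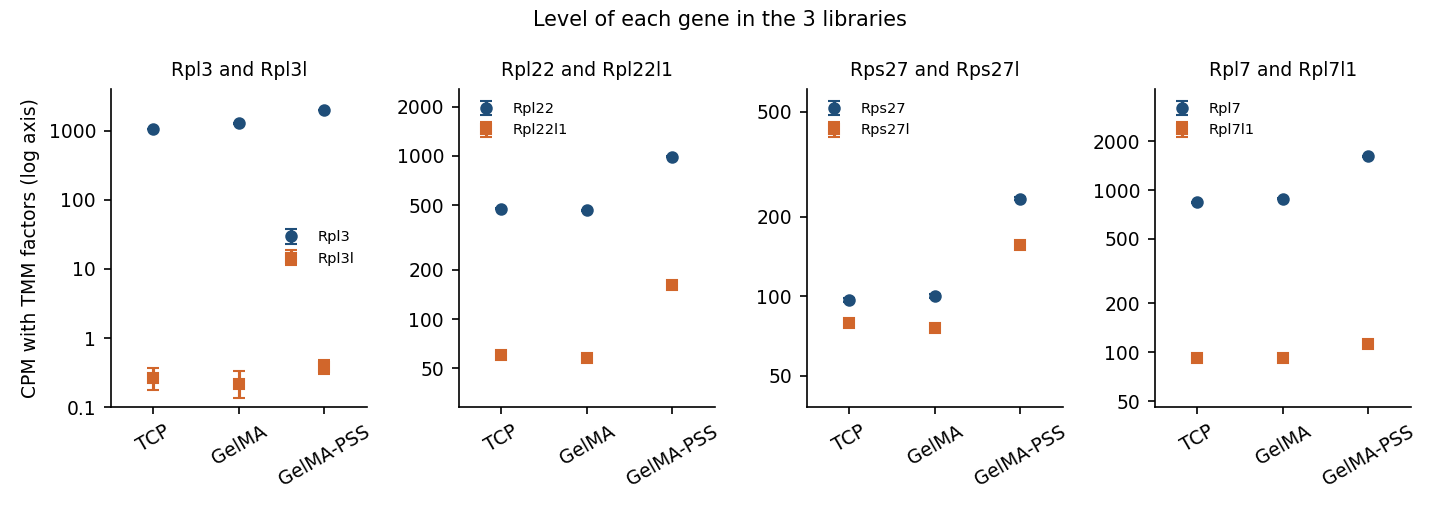
Level of each gene in the 3 libraries. The y axis is CPM with TMM factors on a log axis that differs between panels, circles are the partners, squares the paralogs, and bars are exact Poisson intervals at 95%, often smaller than the symbol. In GelMA-PSS every gene was at its highest level, from 0.386 CPM for Rpl3l to 1965 CPM for Rpl3.

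Rpl22l1 had the highest ratio of the 8 genes before the correction, and Rpl22 after it with the chosen transcripts. Its counts were 7287 in TCP, 5234 in GelMA and 29288 in GelMA-PSS, which gave 59.8, 57.6 and 162 CPM. GelMA-PSS stood above the other libraries, which were close to each other. The log2 ratio reached 1.47 with GelMA and 1.42 with TCP as the control, beside −0.05 between GelMA and TCP. In bulk RNA a change in the cells present and a change in RNA per cell cannot be told apart, here or below. The corrected ratios were 0.66 and 0.71.

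Its partner Rpl22, a large subunit protein that binds RNA, had counts of 57929, 42231 and 179187, or 476, 465 and 989 CPM. Here too the library on GelMA-PSS stood above both others. Relative to GelMA the log2 ratio was 1.09, to TCP 1.05, and it was −0.03 between GelMA and TCP. The corrected ratios of Rpl22 were 0.84 and 0.88, above those of Rpl22l1, with its transcript of 2051 bases, and 0.36 and 0.41, below those of Rpl22l1 at 0.63 and 0.68, with the shortest transcripts. Rpl22l1 thus took 11.2% (10.9 to 11.4) of the counts of the pair in TCP, 11.0% (10.7 to 11.3) in GelMA and 14.0% (13.9 to 14.2) in GelMA-PSS. The interval of GelMA-PSS did not overlap those of the controls, which overlapped each other. These intervals cover counting error only, and for how many other pairs of genes this would hold was not computed.

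The log2 ratio of Rpl22l1 to Rpl22, from which library scaling cancels, was higher in GelMA-PSS by 0.40 (0.35 to 0.44) than in GelMA and by 0.38 (0.34 to 0.42) than in TCP. Between GelMA and TCP it differed by −0.02 (−0.08 to 0.03). The sign of this difference depended on the transcript taken for Rpl22, whose basic coding transcripts run from 474 to 2051 bases while those of Rpl22l1 run from 525 to 552. With the longest Rpl22 transcript the corrected differences reversed to −0.17 and −0.16, and with the shortest transcripts they were 0.29 against both. Which transcript the cells used cannot be read from counts per gene. Per kilobase of transcript, the share of Rpl22l1 was 31.9%, 31.5% and 37.8% in TCP, GelMA and GelMA-PSS with the long Rpl22 transcript, and as low as 9.75%, 9.62% and 12.3% with the short one.

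Rps27, on the small subunit, had counts of 11783 in TCP, 9124 in GelMA and 42506 in GelMA-PSS, or 96.8, 100.4 and 235 CPM. Its log2 ratios to GelMA and TCP were 1.22 and 1.27, and 0.55 and 0.67 after the correction. Rps27rt was higher in each library, with 343, 356 and 823 CPM, and its ratios of 1.21 and 1.26 (corrected 0.48 and 0.60) lay next to those of Rps27. The share of Rps27rt in the counts of both was 78.0% (77.7 to 78.4) in TCP, 78.0% (77.6 to 78.4) in GelMA and 77.8% (77.6 to 78.0) in GelMA-PSS. These intervals overlapped in all 3 libraries. Since 98.4% of the Rps27 windows also occur in Rps27rt, a fixed split of shared reads would give alike ratios and a steady share. These values therefore do not measure the genes apart from each other.

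Rps27l was at 79.3, 76.0 and 157 CPM, from counts of 9652, 6907 and 28437. Its level in GelMA-PSS lay above both controls by 1.04 and 0.98 on the log2 scale, the second just under the 2-fold threshold, and by 0.27 and 0.30 after the correction. GelMA and TCP differed by −0.06. So both genes of the pair were higher in GelMA-PSS, Rps27 by the larger ratio.

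Within the pair, Rps27l took 45.0% (44.4 to 45.7) of the counts in TCP, 43.1% (42.3 to 43.9) in GelMA and 40.1% (39.7 to 40.4) in GelMA-PSS. The intervals, which cover counting error only, did not overlap, also between the controls. How many other pairs of genes would separate in this way was not computed. The log2 ratio of Rps27l to Rps27 was lower in GelMA-PSS by −0.18 (−0.23 to −0.13) against GelMA and −0.29 (−0.34 to −0.25) against TCP, and GelMA lay below TCP by −0.11 (−0.17 to −0.05). The corrected differences were −0.28, −0.37 and −0.08. With Rps27 and Rps27rt added together as the partner, the differences were −0.17, −0.28 and −0.11, and the share of Rps27l was 15.3%, 14.3% and 12.9%. The interval of the difference between the control substrates overlapped that of GelMA-PSS against GelMA.

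**Figure D3:**
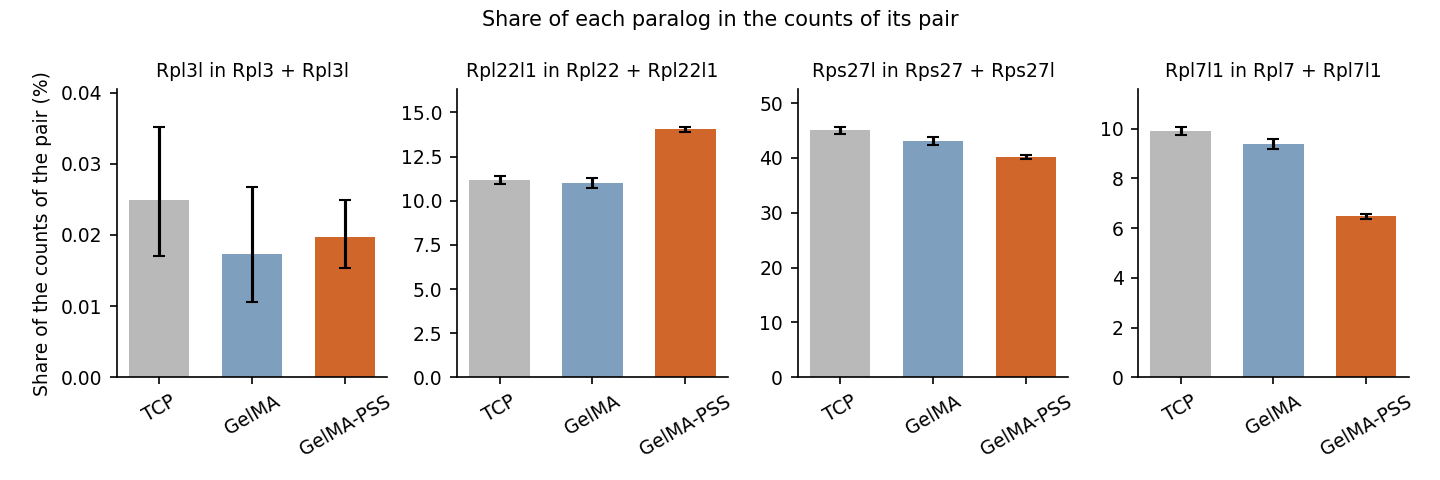
Share of each paralog in the counts of its pair. The y axis is the percentage of the summed counts of paralog and partner, with a separate scale from 0 in each panel, and bars are exact Clopper-Pearson intervals at 95%. Rpl22l1 took a larger share in GelMA-PSS (14.0%), Rps27l (40.1%) and Rpl7l1 (6.47%) took smaller ones, and the intervals of Rpl3l overlapped.

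Rpl7, a large subunit protein, had counts of 102479, 80204 and 293304 in TCP, GelMA and GelMA-PSS, which gave 842, 883 and 1619 CPM. Its log2 ratios to GelMA and TCP were 0.87 and 0.94, below the 2-fold threshold, and it was 0.07 between GelMA and TCP. The corrected ratios were 0.33 and 0.50.

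Rpl7l1 moved far less, with counts of 11269, 8313 and 20287, or 92.5, 91.5 and 112 CPM. The level in GelMA-PSS was the highest, by 0.29 against GelMA and 0.27 against TCP on the log2 scale, and GelMA and TCP differed by −0.02. After the correction the ratios were 0.16 and 0.18 with the transcript of 2606 bases, and −0.15 and −0.08 with the shortest, of 1310 bases, so its direction depended on the transcript taken.

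Rpl7l1 took 9.91% (9.73 to 10.1) of the counts of the pair in TCP, 9.39% (9.20 to 9.59) in GelMA and 6.47% (6.38 to 6.56) in GelMA-PSS. In the counts as deposited, this pair had the largest difference between GelMA-PSS and the controls of the 3 pairs whose paralog passed the filter. Intervals that leave out 0 cover counting error only, and how many other pairs of genes would have such intervals was not computed. The log2 ratio of Rpl7l1 to Rpl7 was lower by −0.58 (−0.62 to −0.55) against GelMA and by −0.67 (−0.70 to −0.63) against TCP, beside −0.09 (−0.13 to −0.04) between GelMA and TCP. The corrected differences kept the sign, at −0.17 and −0.32 with the longer transcript and −0.48 and −0.57 with the shorter. Between GelMA and TCP the corrected differences were −0.13 and −0.09.

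Rpl3 was the most abundant of the 8 genes, with counts of 128214, 115714 and 355945 in TCP, GelMA and GelMA-PSS, or 1053, 1273 and 1965 CPM. Its log2 ratios to GelMA and TCP were 0.63 and 0.90, and it had the largest gap of the 8 genes between the controls, 0.27. The corrected values were 0.22, 0.57 and 0.33, so that after the correction GelMA lay further above TCP than GelMA-PSS above GelMA.

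Rpl3l was listed with 32, 20 and 70 counts, which is 0.263 (0.180 to 0.371), 0.220 (0.134 to 0.340) and 0.386 (0.301 to 0.488) CPM. These are above the limit of 3 counts in each library and below the filter of 1 CPM. The level in GelMA-PSS was 1.76-fold (1.07 to 2.89) that in GelMA and 1.47-fold (0.968 to 2.23) that in TCP. As log2 ratios without a pseudocount these are 0.81 and 0.56, above the trend subtracted in the correction (0.33 and 0.26). On log2(CPM + 1) the ratios shrank to 0.18 and 0.13, and the corrected ones were −0.15 and −0.13. Their place below 0 therefore rests on the pseudocount. For each count of Rpl3l there were 4007 of Rpl3 in TCP, 5786 in GelMA and 5085 in GelMA-PSS. The log2 ratio of the pair differed by 0.19 (−0.53 to 0.90) against GelMA, by −0.34 (−0.95 to 0.26) against TCP and by −0.53 (−1.34 to 0.28) between the controls, so no difference was detectable at this depth. In the same libraries the 7 myogenic markers did not move together. Myh3, the embryonic myosin heavy chain, was at 10182, 6355 and 3037 CPM in TCP, GelMA and GelMA-PSS. Tmem8c was also lowest in GelMA-PSS. Myf5 was highest there, at 13.9, 19.5 and 36.5 CPM, as were Myod1 and, by a small margin over TCP, Cdh15. Myog and Des lay between the controls.

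**Figure D4:**
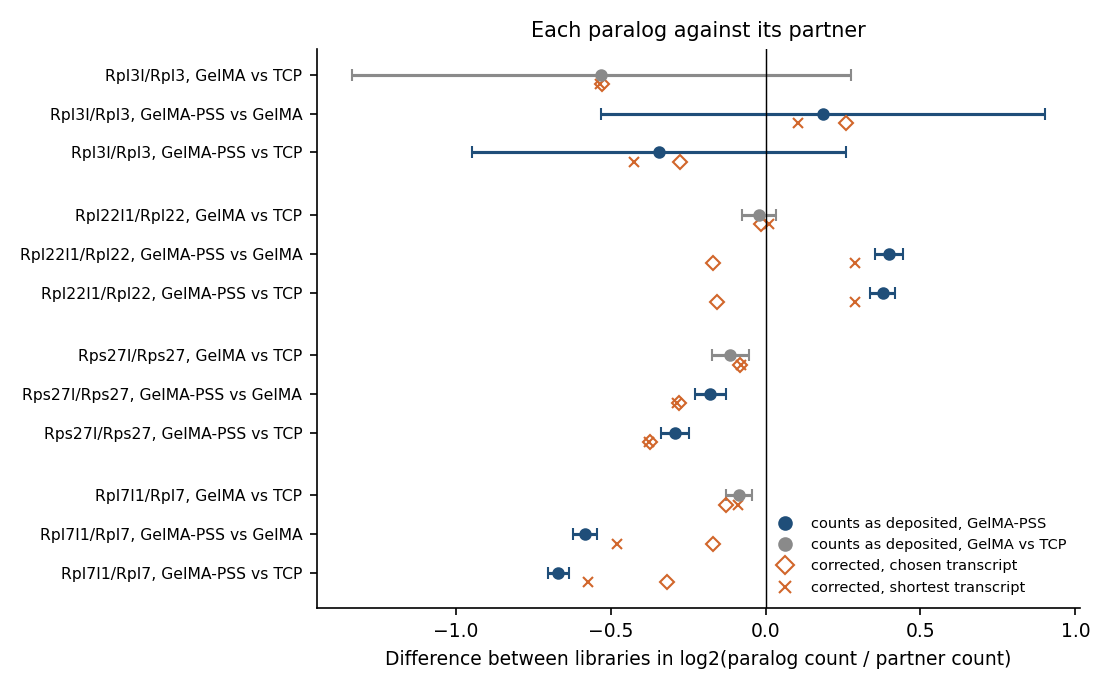
Difference between libraries in the log2 ratio of each paralog to its partner. Circles are the counts as deposited with intervals at 95% for counting error, in grey for GelMA against TCP, and the open diamonds and crosses are the values corrected for transcript length and GC content with the chosen and the shortest coding transcripts. Rpl22l1 lay above 0 in GelMA-PSS (0.40 and 0.38) with corrected values on both sides of 0, and Rps27l and Rpl7l1 lay below 0 in all 3 forms.

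Ordered by level per kilobase of transcript in TCP, Rpl3 came first with 779 CPM per kilobase and Rpl7 second with 724, followed by Rps27 with 280, Rpl22 with 232, Rps27l with 159, Rpl22l1 with 108, Rpl7l1 with 35.5 and Rpl3l with 0.191. In GelMA-PSS the order was Rpl3 (1454), Rpl7 (1392), Rps27 (680), Rpl22 (482), Rps27l (315), Rpl22l1 (293), Rpl7l1 (43.0) and Rpl3l (0.281), which was the same order. The place of Rpl22 rests on its transcript of 2051 bases, since with 474 bases it would be at 1004 in TCP and 2087 in GelMA-PSS, above Rpl3. Further places also turned with the transcript, since the longest one put Rps27 at 211 in TCP, below Rpl22, and Rps27l at 273 in GelMA-PSS, below Rpl22l1. The place of Rps27 depends further on the unknown split of reads with Rps27rt. That gene, left out of this order, was at 918 in TCP and 2202 in GelMA-PSS, above Rpl3. Without replicates, whether neighbours in this order differ beyond their spread cannot be said.

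The canonical ribosomal proteins as a group give the setting for the partners. All 79 of the 79 genes listed were highest in GelMA-PSS, also without the TMM factor and after the correction, and 25 passed 2-fold (5 without the TMM factor, 1 after the correction). Relative to the mean of both controls their median log2 ratio was 0.99 with a range from 0.64 to 1.43, beside 0.03 over all genes tested, and 0.49 after the correction. Between GelMA and TCP their median was 0.13. The summed share of these genes in all counts was 4.67% in TCP, 5.22% in GelMA and 8.91% in GelMA-PSS. The lowest ratios of the list were those of Rpl8 (0.64) and Rps2 (0.72) and the highest those of Rpl39 (1.43) and Rps27 (1.24).

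Set among the 75 ribosomal proteins that are in none of the pairs, on this same ratio, Rps27 (1.24) was passed by 1 of them, Rpl22 (1.07) by 24, Rpl7 (0.91) by 52 and Rpl3 (0.76) by 72. Of the paralogs, Rpl22l1 (1.45) lay above all 75 and Rps27l (1.01) was passed by 33, whereas Rpl7l1 (0.28) lay below all 75. After the correction 3 of the 75 were above Rpl22, 18 above Rps27, 51 above Rpl7 and 54 above Rpl3, and 9 were above Rpl22l1, 71 above Rps27l and 75 above Rpl7l1. The partner Rpl22 then stood above its paralog, with the chosen transcripts. Its place near the top rests on the same choice. With its shortest transcript its corrected ratios were 0.36 against GelMA and 0.41 against TCP, under the corrected median of 0.49 of the 75. The 3 paralogs that passed the filter ranged from 0.28 to 1.45, and the 4 partners from 0.76 to 1.24.

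**Figure D5:**
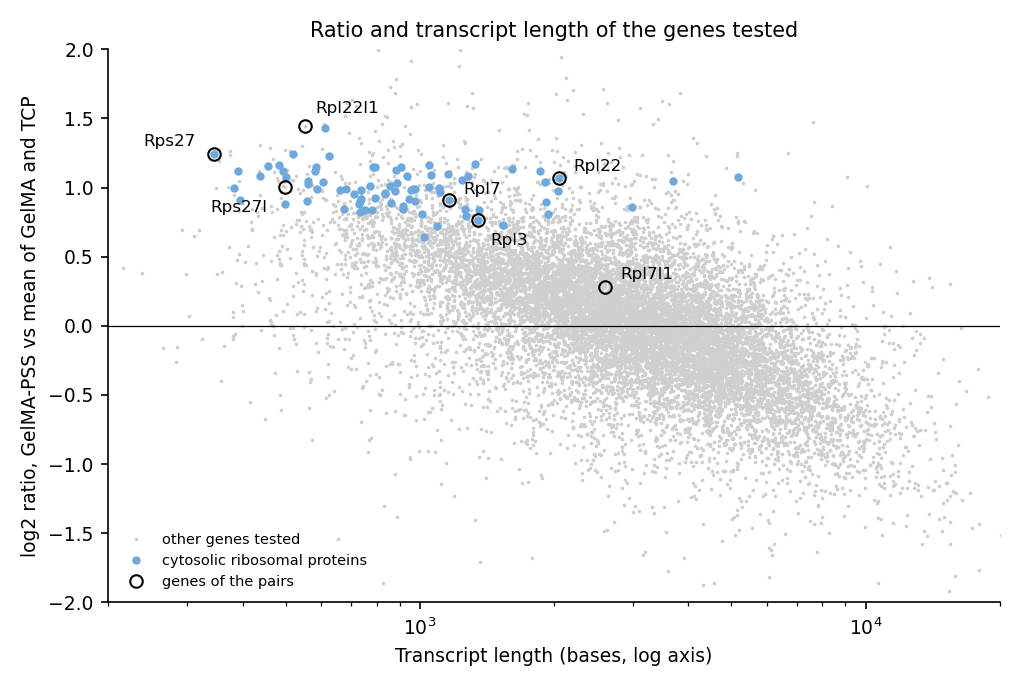
Log2 ratio of GelMA-PSS to the mean of GelMA and TCP against transcript length. The x axis is the transcript length in bases on a log axis, grey points are genes tested, blue points the 79 cytosolic ribosomal proteins, and open circles the 7 genes of the pairs that were tested, with 150 of 13062 genes outside the axes. Shorter transcripts had higher ratios, and after the correction Rpl22 stood above 98.2% of the genes tested and Rpl7l1 above 71.3%, both with the longest transcripts plotted here, while with the shortest the corrected ratios fell to 0.36 and 0.41 for Rpl22 and to −0.15 and −0.08 for Rpl7l1.

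Other paralogs of ribosomal proteins were read alongside. Of 7 listed, 4 passed the filter, all of them highest in GelMA-PSS, and their median ratio was 0.88, beside 0.05 between GelMA and TCP. After the correction 2 of the 4 were highest in GelMA-PSS. Rpl36al, a copy of Rpl36a, had 106, 102 and 197 CPM in TCP, GelMA and GelMA-PSS, and Rpl37rt had 35.0, 47.8 and 74.5. Rsl24d1, an assembly factor related to Rpl24, had 37.7, 38.9 and 47.0 CPM, with a ratio of 0.29 next to that of Rpl7l1 and −0.09 after the correction. Rps27rt, whose split of reads with Rps27 is unknown, was the one of the 4 that passed 2-fold against both, and 0 did after the correction. Rpl39l had 3, 1 and 15 counts, Rps4l 5, 2 and 26, and Rpl10l, whose counts were 0, 1 and 0, was under the limit of detection.

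Further lists cover the known roles of Rpl7l1 (large subunit assembly), Rps27l (a target of p53) and Rpl3l (muscle). Of 42 assembly factors of the large subunit, 24 were highest in GelMA-PSS, 13 lowest there and 5 between the controls, which is 57.1% highest and 31.0% lowest beside 45.3% and 39.3% of all genes tested. The median was 0.10, beside −0.07 between GelMA and TCP. Mdn1 alone passed 2-fold and was lower (−1.44 against the mean of the controls), which it did not after the correction (−0.37). Without the TMM factor 16 were highest and 19 lowest there, and after the correction 18 and 15, so this list had no direction that held under both scalings. Noc3l (−0.42) was next lowest, and Nsa2 (0.72) and Rpf2 (0.61) were highest.

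Of 33 target genes of p53, 7 were highest in GelMA-PSS, 14 lowest and 12 between, which is 21.2% highest and 42.4% lowest beside 45.3% and 39.3% of all genes tested. The median was −0.05, beside 1.01 for Rps27l. Taken apart, it was −0.00068 against GelMA and −0.13 against TCP, beside −0.15 between GelMA and TCP. Without the TMM factor 7 were highest and 24 lowest, with a median of −0.17, and after the correction 9 and 17. Gdf15, a secreted stress factor, passed 2-fold upward (1.14), a call that was lost without the TMM factor, at a pseudocount of 5 CPM and after the correction (0.97). It was followed by the glutathione peroxidase gene Gpx1 (0.82), while Sesn2 (−0.93) and Eda2r (−0.73) were lowest. Of 40 late muscle genes, 2 were highest in GelMA-PSS, 28 lowest and 10 between, or 70.0% lowest beside 39.3% of all genes tested. Their median was −0.50 against the mean of the controls. Taken apart, it was −0.27 against GelMA and −0.80 against TCP, beside −0.49 between GelMA and TCP. These genes were thus also lower on GelMA without PSS than on TCP. Downward, 12 of the 40 passed 2-fold, beside 1.16% of all genes. After the correction 0 were highest and 39 lowest, and 4 passed 2-fold downward. The giant sarcomere genes Ttn (−2.49) and Neb (−2.23), which have the longest transcripts of those named here, were lowest, at −0.26 and −1.02 after the correction. Mylpf, a fast myosin light chain, and Gm7325, the fusion factor myomixer, were highest at 0.30 and 0.24, and both were below 0 after the correction, at −0.24 and −0.26.

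The genes whose pattern over the 3 libraries was most like that of a paralog were found by the distance between their 2 log2 ratios, GelMA and GelMA-PSS each against TCP. For Rpl22l1 these were Snora7a (distance 0.11), with 59.1, 60.7 and 154 CPM, and 2410006H16Rik (0.15). For Rps27l they were Ost4 (0.0091), with 73.4, 69.9 and 145 CPM, and Serpinb6a (0.018). For Rpl7l1 they were Rabl3 (0.0026) and Poll (0.0051), with 8.07, 7.98 and 9.94 and 10.6, 10.5 and 13.0 CPM. The partner ranked 98th for Rpl22l1, 549th for Rps27l and 9353rd for Rpl7l1 among the genes tested. With 3 libraries many genes share such a pattern, and it says nothing of common control.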

How the data were processed

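RNA-seq libraries of C2C12 cells on TCP, GelMA and GelMA-PSS were used, with 1 library per substrate, grouped by the sample labels. The study's methods give a TruSeq kit and paired-end, strand-specific reads, while the kit in the labels is a SMARTER one. The values the authors deposited are raw read counts for each gene symbol. The submitters' processing notes name TopHat, edgeR and the builds hg19 and mm10. The counting tool, the annotation and whether reads or pairs were counted are not given in the sources used here. The intervals are too narrow where both reads of 1 fragment entered the counts. PCR reads without molecular identifiers are not independent molecules, so the intervals and limits cover counting error only.

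Lines sharing a symbol were summed (23282 lines, 23238 symbols, 35 symbols repeated). Counts were scaled to CPM with TMM factors (1.02, 1.04 and 0.943 for TCP, GelMA and GelMA-PSS, from edgeR 4.0.16 in R 4.3.3) in place of the FPKM of the study's methods. Genes that reached 1 CPM in any library were kept (13169), and ratios were taken on log2(CPM + 1), which understates the change of low genes. A gene was called when it was past 2-fold from both controls, in 1 direction. Intervals at 95% are exact Poisson for CPM, exact Clopper-Pearson for shares and by the delta method for within-pair log2 ratios (scipy 1.17.1). Total counts per library ranged from 87071144 to 192171443.

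Coordinates, lengths and coding sequences were taken from GENCODE vM21 (GRCm38) for 1 transcript of each gene, chosen by the APPRIS principal tag, then the longest coding sequence and transcript. Of the symbols, 22197 matched directly, 675 through a synonym and 366 not. The correction subtracted loess fits (span 0.3, statsmodels 0.14.6) on log2 length and then GC content. On simulated data for GelMA-PSS against both controls, 99.5% of 200 genes changed 4-fold were recovered, with 0 calls among the unchanged ones of 12906 tested. These simulated counts held Poisson error only, around 1 mean per gene and without a length trend. The 0 calls therefore bear on counting error and not on spread between cultures or preparations. For GelMA-PSS against GelMA, a simulated dependence on length went from a Spearman's rho of −0.975 to 0.10 over 13062 genes.

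The genes of the pairs and the 5 lists were chosen with earlier results of these data known. Besides the 8 genes, those named are the 2 nearest to each paralog that passed the filter, the 2 highest and 2 lowest of each list, every listed paralog, and marker genes. Rps27rt as a partner, Gm15421 and the symbols Tmem8c (Mymk), Gm7325 (Mymx) and Gltscr2 (Nop53) were taken up after the files were seen. Alternatives covered scaling, pseudocount, repeated symbols, threshold, the correction and the transcript taken.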

Additional observations from a re-analysis of the deposited data

How the results depend on the processing

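No paired analysis was possible because each substrate has 1 library, which also leaves no replicate to leave out. Among the within-pair differences between GelMA-PSS and the controls, the sign turned in 2 pairs. For Rpl22l1 and Rpl22 the correction for length and GC content with the chosen transcripts gave −0.17 against GelMA and −0.16 against TCP. With the shortest coding transcripts, an alternative added after seeing the data, it was 0.29 and 0.29. For Rps27l and Rps27 the correction gave −0.28 and −0.37 with the chosen and −0.29 and −0.38 with the shortest transcripts. For Rpl7l1 and Rpl7 it gave −0.17 and −0.32, and −0.48 and −0.57. A pseudocount of 5 CPM on each gene gave 0.33 and 0.31 for Rpl22l1 and Rpl22. For Rpl3l and Rpl3 against GelMA, where the interval of 0.19 spans 0, pseudocounts of 1 and 5 CPM gave −0.44 and −0.58. Both pseudocounts exceed every level of Rpl3l. Between GelMA and TCP the −0.02 of Rpl22l1 and Rpl22, whose interval also spans 0, became 0.01 with the shortest transcripts.

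Counts over all genes moved more. Against 180 genes more than 2-fold higher and 153 lower in GelMA-PSS, library totals without a factor gave 97 and 261, a pseudocount of 5 CPM 106 and 77, the correction 59 and 78, and a threshold of 1.5-fold 1064 and 946. A pseudocount of 0.25 CPM gave 241 lower. For GelMA against TCP the 132 genes became 259 at 0.25 CPM, 45 at 5 CPM and 740 at 1.5-fold. Of the 8 genes, Rpl3l turned lower than both controls under the correction, a sign that rests on the pseudocount of 1 CPM. Rpl7l1 turned lower under the correction with its shortest transcript. Depth limits the Rpl3 pair alone, through the 20 to 70 counts of Rpl3l. All pairs are limited by the single library per substrate. The Rpl22 pair is limited further by the transcript taken and by the 50.4% of Rpl22l1 windows that occur elsewhere. For the Rps27 pair the unknown split of reads with Rps27rt is a further limit, and for the Rpl7 pair the size moved with the transcript taken.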
